A study of Mus musculus with 12 samples.

Results

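The comparison set 2 libraries, titled HT-DNA 2 and cGAMP 2, against 2 others, titled mock 2 and hpRNA 2, which makes 4 of the 12 libraries of the series. All are bulk mRNA libraries of a mouse fibroblast line, collected 6 h after transfection or stimulation. The cell line label reads L929, an established line of mouse fibroblasts, in every library. HT-DNA and hpRNA are described as transfections, cGAMP as a stimulation, and mock as untreated. The source label calls the cGAMP cells L929 and the others a mouse fibroblast line. The abbreviations HT-DNA and hpRNA are kept as the labels write them. Each label has 1 library in this comparison, and the number 2 is the one that ends its title. The same 4 labels with the number 1 form a second set of 4 libraries, in which the same contrast was tested. These 4 libraries and the way they are paired were chosen by measured expression, the levels of interferon-stimulated genes, which were high on both sides. Every difference between HT-DNA 2 and cGAMP 2 and the pair of mock 2 and hpRNA 2 is therefore a description with no test.

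Cytosolic DNA is bound by cGAS, which makes the messenger cGAMP. cGAMP activates STING, which through the kinase TBK1 turns on the transcription factor IRF3 and also NF-kB, and these induce interferon beta and a first group of chemokines and antiviral genes directly. Secreted interferon then acts on its receptor, and JAK kinases activate transcription factors that induce the broad set of interferon-stimulated genes. The factor IRF1 further induces guanylate-binding proteins (GBPs) and immunity-related GTPases (IRGs), large families of proteins that attack compartments holding pathogens.

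The libraries labelled mock 2 and hpRNA 2 stood far from those numbered 1 of the same labels. Only mock is described as untreated, while hpRNA is described as a transfection. A noise ratio was computed for pairs of libraries, in which 1 means sampling noise alone. It was 9.33 between mock 2 and mock 1 and 8.88 between hpRNA 2 and hpRNA 1. The other labels also differed between the numbers, with 3.52 between HT-DNA 2 and HT-DNA 1 and 4.38 between cGAMP 2 and cGAMP 1. Within the libraries numbered 1 it was 1.84 between mock 1 and hpRNA 1 and 1.55 between HT-DNA 1 and cGAMP 1. Against HT-DNA 1 it was 2.31 for mock 2 and 2.31 for hpRNA 2, and against cGAMP 1 it was 2.31 for mock 2 and 2.03 for hpRNA 2. Between HT-DNA 2 and cGAMP 2 it was 1.86 and between mock 2 and hpRNA 2 1.70, while the 4 pairings across the sides gave 2.86 to 3.86. Of 77 interferon-stimulated effector genes, 76 had higher levels in both mock 2 and hpRNA 2 than in both mock 1 and hpRNA 1. The same number were higher in mock 2 and hpRNA 2 than in HT-DNA 1 and cGAMP 1, and 76 were higher in HT-DNA 2 and cGAMP 2 than in HT-DNA 1 and cGAMP 1. Levels of interferon-stimulated genes chose the libraries numbered 2, and the share over all genes was not counted. These counts are therefore a description only. An exchange of titles and a stimulation of these cells beyond their labels cannot be told apart from these files. The names below are only the labels of the libraries, so a value given under a name need not belong to that treatment.

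Total counts were 16282688 in HT-DNA 2, 15579347 in cGAMP 2, 16263972 in mock 2 and 17865784 in hpRNA 2, with a count for 21943 to 22225 genes. Fibroblast markers were present: 10 of 13 reached 1 CPM (CPM is the count scaled to the library total, here with TMM factors), and their sum was 4250 and 4288 CPM in HT-DNA 2 and cGAMP 2, against 4023 and 4226 CPM in mock 2 and hpRNA 2. Of these markers Dcn had 0 counts in all 4 libraries, and Lum and Thy1 stayed under 1 CPM. The 8 macrophage markers summed to 79.2 and 79.0 CPM in HT-DNA 2 and cGAMP 2, against 89.5 and 89.9 CPM in mock 2 and hpRNA 2, most of it Cd68, and the defining markers Adgre1, Csf1r and Ptprc were each under 1 CPM. Lymphocyte markers summed to 1.05 to 1.94 CPM, epithelial markers to 0.246 to 0.743 CPM and endothelial markers to 2.51 to 3.59 CPM over the 4 libraries.

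Genes that were much higher in HT-DNA 2 and cGAMP 2 were the interferon gene Ifnb1, the chemokines Cxcl9 and Cxcl11, and most GBPs and IRGs. Most antiviral effectors, such as Ifit1, Isg15 and Oasl2, were high in all 4 libraries and differed by less. A few transcripts ran the other way, first among them the chemokine Ccl5. Among 12710 genes with a mean of at least 1 CPM, 58 were more than 2-fold higher in each of the 4 pairings of a library of one side with a library of the other, which is 0.456% of genes. In bulk RNA a share of responding cells and a level per cell cannot be told apart, here or in any result below. Only 1 gene, Ccl5, was more than 2-fold lower in all 4 pairings, which is 0.00787%. The 58 genes had log2 differences from 1.15 to 3.27 with a median of 1.85, beside a median of -0.01 over all genes, and their mean levels ranged from 1.08 to 364.6 CPM. Single pairs gave a scale for these counts: HT-DNA 2 was past 2-fold higher than cGAMP 2 in 30 genes and lower in 27, mock 2 was past 2-fold higher than hpRNA 2 in 29 and lower in 25, and cGAMP 2 was past 2-fold higher than mock 2 in 130 and lower in 48. Without mock 2 the genes past 2-fold numbered 94 higher and 9 lower. The count of lower genes was also 22 without HT-DNA 2, 13 without cGAMP 2 and 14 without hpRNA 2. With a library left out a gene has fewer pairings to pass, so these counts rise whichever library it is.

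The same contrast was tested with edgeR in HT-DNA 1 and cGAMP 1 against mock 1 and hpRNA 1, where the summed level of the effector genes was 5997 and 6482 CPM in HT-DNA 1 and cGAMP 1, against 2378 and 2427 CPM in mock 1 and hpRNA 1. Of 14083 genes tested, 2134 were called higher (15.2%) and 1947 lower (13.8%) at an adjusted p under 0.05, 29.0% in all. Of the 58 genes, 38 had enough counts to be tested there, 25 were called higher and 2, Cish and Nfatc2, were called lower; Nfatc2, a transcription factor of calcium signalling, is named for that count only. Ccl5 was called higher there. Without HT-DNA 1 the calls fell to 933 higher and 604 lower, and without cGAMP 1 to 889 higher and 632 lower. Upper-quartile scaling gave 1791 higher and 2454 lower, and DESeq2 gave 1300 higher and 938 lower.

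**Figure D1:**
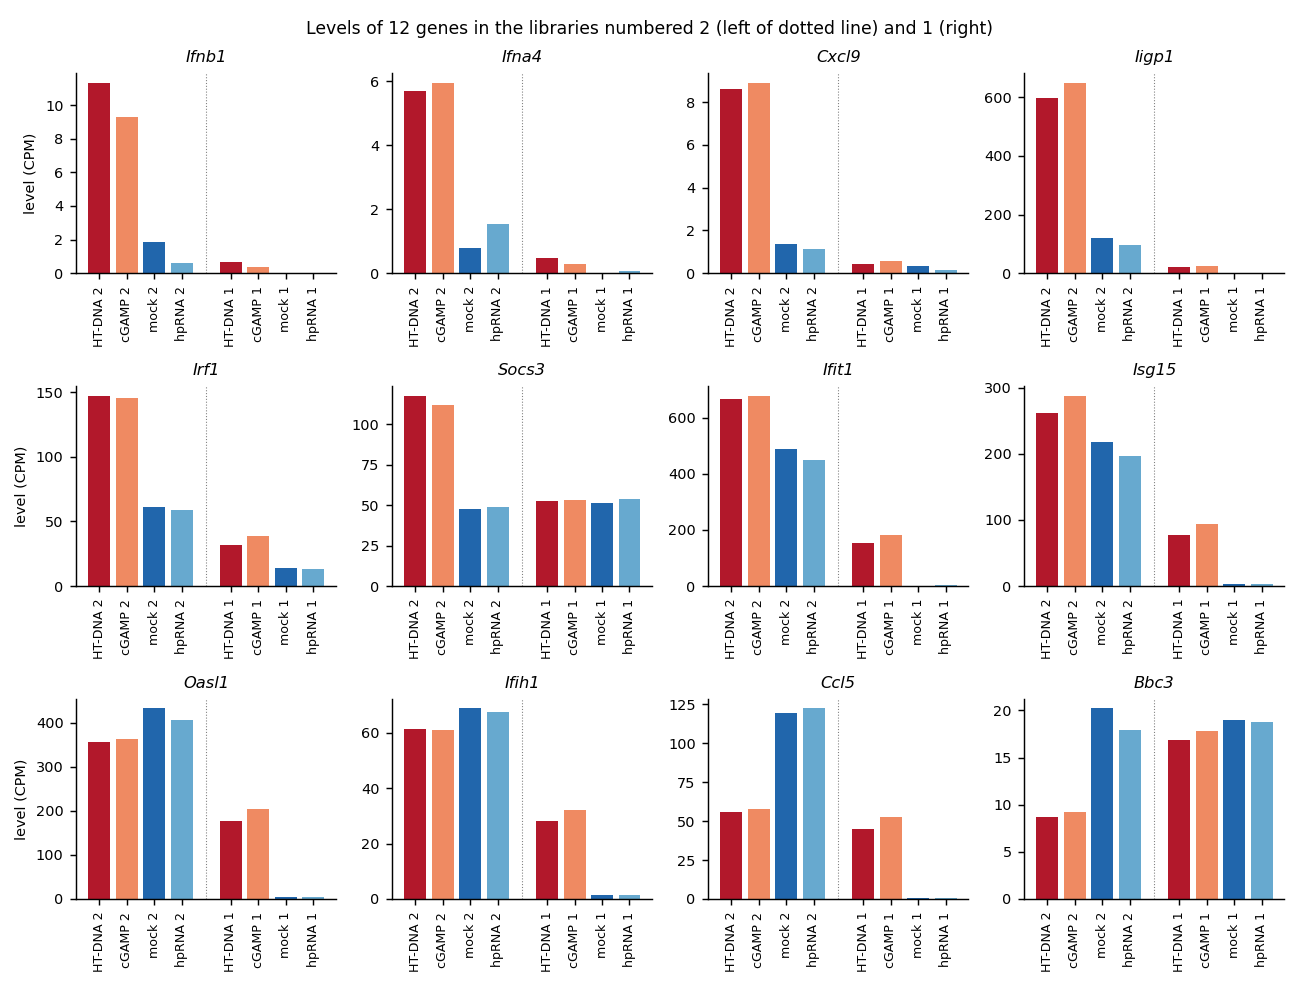
Levels of 12 genes in CPM, 1 bar a library, with a linear axis from 0 for each gene; the libraries numbered 2 stand left of the dotted line and those numbered 1 right of it. Ifnb1, Cxcl9 and Iigp1 were higher in HT-DNA 2 and cGAMP 2 than in mock 2 and hpRNA 2, Ifit1 and Isg15 were high in all 4, and Ccl5 was higher in mock 2 and hpRNA 2.

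The interferon genes stand at the top of the pathway. Ifnb1 (chr4:88522025-88522774, minus strand), which encodes interferon beta, had 183 and 142 counts in HT-DNA 2 and cGAMP 2, against 30 and 11 counts in mock 2 and hpRNA 2. These are 11.3 and 9.30 CPM, against 1.84 and 0.628 CPM, a log2 difference of 3.10. Both libraries of one side lay above both of the other, and mock 2 and hpRNA 2 differed between themselves by 1.39 on the log2 scale. The ratio of the summed counts was 8.49, with an exact 95% interval of 6.12 to 12.1 that covers counting error only. In the other set Ifnb1 had 13 and 7 counts in HT-DNA 1 and cGAMP 1, against 0 and 0 counts in mock 1 and hpRNA 1, and was too low for the filter of the test. With no filter on low counts edgeR gave it an adjusted p of 0.0397. Ifna4, an interferon alpha gene of the same chromosomal cluster, had 5.70 and 5.96 CPM in HT-DNA 2 and cGAMP 2, against 0.799 and 1.54 CPM in mock 2 and hpRNA 2. Its log2 difference was 2.27 and the sides did not overlap. These 2 were the only ones of 21 interferon genes with a mean of at least 1 CPM, and 8 of the 21 had 0 counts in all 4 libraries. Reads of the near-identical interferon alpha genes can be shared between them.

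The sequences upstream of 6 genes are shown because interferon-induced genes past the 2-fold limit and others short of it stood side by side. Ifnb1, Ifna4, the GBP gene Gbp2b and Irf1 were past 2-fold higher in all 4 pairings, and Cxcl10 and Isg15 were not. Each is the 250 bases before the RefSeq start on the gene's own strand, 5′ to 3′, from RefSeq on GRCm38.p6. Capitals mark matches, on either strand, to 3 motifs: GAAANNGAAA for factors of the IRF family, TTCNNNGAA for STAT dimers (the GAS element) and GGGANNNNCC for NF-kB. They stand at chr4:88522795-88523044 (minus) for Ifnb1, chr4:88841566-88841815 (plus) for Ifna4, chr3:142594597-142594846 (plus) for Gbp2b, chr11:53769764-53770013 (plus) for Irf1, chr5:92348890-92349139 (minus) for Cxcl10 and chr4:156200819-156201068 (minus) for Isg15.
Ifnb1: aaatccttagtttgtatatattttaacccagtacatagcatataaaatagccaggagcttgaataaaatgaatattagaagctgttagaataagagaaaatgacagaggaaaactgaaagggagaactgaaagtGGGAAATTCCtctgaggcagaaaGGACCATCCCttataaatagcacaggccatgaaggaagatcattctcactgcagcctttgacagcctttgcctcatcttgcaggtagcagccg
Ifna4: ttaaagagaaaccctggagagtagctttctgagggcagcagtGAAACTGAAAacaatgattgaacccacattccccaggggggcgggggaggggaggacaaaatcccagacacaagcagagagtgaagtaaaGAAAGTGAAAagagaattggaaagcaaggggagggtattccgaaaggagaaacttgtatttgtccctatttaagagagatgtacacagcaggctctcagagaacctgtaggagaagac
Gbp2b: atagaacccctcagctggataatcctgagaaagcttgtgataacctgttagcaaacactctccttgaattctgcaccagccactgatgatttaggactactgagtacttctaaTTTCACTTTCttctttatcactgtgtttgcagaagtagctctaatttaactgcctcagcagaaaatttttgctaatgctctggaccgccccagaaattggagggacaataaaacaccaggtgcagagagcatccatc
Irf1: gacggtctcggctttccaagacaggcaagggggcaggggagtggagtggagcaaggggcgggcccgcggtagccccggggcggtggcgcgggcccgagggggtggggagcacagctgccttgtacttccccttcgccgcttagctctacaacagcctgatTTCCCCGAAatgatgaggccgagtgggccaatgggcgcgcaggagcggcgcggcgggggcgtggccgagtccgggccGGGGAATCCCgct
Cxcl10: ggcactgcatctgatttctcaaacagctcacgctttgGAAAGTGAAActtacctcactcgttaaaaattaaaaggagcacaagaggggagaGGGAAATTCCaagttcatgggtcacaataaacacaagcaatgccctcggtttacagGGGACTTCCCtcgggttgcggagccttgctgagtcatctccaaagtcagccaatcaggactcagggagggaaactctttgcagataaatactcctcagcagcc
Isg15: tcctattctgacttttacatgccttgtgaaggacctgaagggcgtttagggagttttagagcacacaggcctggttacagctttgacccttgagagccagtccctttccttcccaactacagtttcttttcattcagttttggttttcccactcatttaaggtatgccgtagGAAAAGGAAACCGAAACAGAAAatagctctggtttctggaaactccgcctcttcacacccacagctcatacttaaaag

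Ifnb1 held 2 NF-kB matches, at 116 to 107 and 93 to 84 bases before the start. Ifna4 held 2 IRF matches and Gbp2b held 1, TTTCACTTTC at 137 to 128 bases. Irf1 held the GAS match TTCCCCGAA at 90 to 82 bases and an NF-kB match at 13 to 4 bases. Cxcl10 held 1 IRF match and 2 NF-kB matches, and Isg15 held 3 IRF matches that overlap each other. Over 27025 genes of the RefSeq table, 3.46% had an IRF match in this window, 8.13% a GAS match and 19.7% an NF-kB match. Of the 75 effector genes of at least 1 CPM that were not past 2-fold, 63 were in the table, and 39.7%, 9.52% and 27.0% of these had the IRF, GAS and NF-kB match in that order. Only 38 of the 58 higher genes and 11 of the 18 GBP and IRG genes were in the table, so the shares are void for both sets. A match is only these letters in this window and not a known binding site. A gene with no match, such as Ifnb1 for the IRF letters, may still hold a site with other letters or spacing.

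GBPs and IRGs were higher throughout in HT-DNA 2 and cGAMP 2. Of 18 genes of these families with at least 1 CPM, 12 were past 2-fold higher, none was lower, and all 18 had both HT-DNA 2 and cGAMP 2 above both mock 2 and hpRNA 2. For comparison, 21.6% of all genes were so separated upward and 27.3% downward, and 0.456% were past 2-fold higher. The median log2 difference of the 18 was 1.52 and the range 0.59 to 2.80, and none lay under 0.5. Of these, 14 were tested in the libraries numbered 1 and all 14 were called higher, with a median log2 fold change of 3.47. The share called higher among all genes tested was 15.2%. These families sit in clusters of similar genes, so reads may be shared between members.

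Iigp1, an IRG that coats the vacuoles of intracellular parasites, had 596 and 649 CPM in HT-DNA 2 and cGAMP 2, against 119 and 94.6 CPM in mock 2 and hpRNA 2, a log2 difference of 2.55. The lower pair was itself well above the other set, where Iigp1 had 22.2 and 23.8 CPM in HT-DNA 1 and cGAMP 1, against 1.08 and 2.18 CPM in mock 1 and hpRNA 1. There its log2 fold change was 3.80 (SE 0.177, edgeR adjusted p = 3.18e-11). Gbp4 had the highest log2 difference of the family, 2.80, with 12.7 and 17.1 CPM in HT-DNA 2 and cGAMP 2, against 1.97 and 2.06 CPM in mock 2 and hpRNA 2. Gbp2b had 42.3 and 44.5 CPM in HT-DNA 2 and cGAMP 2, against 8.29 and 8.45 CPM in mock 2 and hpRNA 2. Gbp2, a GBP that gathers on bacteria and parasite vacuoles, had 32.1 and 35.3 CPM in HT-DNA 2 and cGAMP 2, against 10.3 and 6.39 CPM in mock 2 and hpRNA 2. In all of these the sides were far apart relative to the gap between the libraries of one side.

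The 4 well-expressed members with the smallest differences, Irgm1, Gbp3, Irgm2 and Igtp, were still higher. Irgm1, a regulatory IRG that controls the effector IRGs, had 448 and 449 CPM in HT-DNA 2 and cGAMP 2, against 255 and 248 CPM in mock 2 and hpRNA 2, a log2 difference of 0.83. Gbp3 had 103 and 109 CPM in HT-DNA 2 and cGAMP 2, against 62.1 and 52.7 CPM in mock 2 and hpRNA 2, a log2 difference of 0.89. Irgm2, another regulatory IRG, had 241 and 264 CPM in HT-DNA 2 and cGAMP 2, against 112 and 95.3 CPM in mock 2 and hpRNA 2, a log2 difference of 1.28. In each of these genes the sides did not overlap. Igtp, also a regulatory IRG, had 219 and 218 CPM in HT-DNA 2 and cGAMP 2, against 84.7 and 71.0 CPM in mock 2 and hpRNA 2. Irgm1, Gbp3, Irgm2 and Igtp had log2 fold changes of 3.57, 4.21, 4.67 and 4.33 in the libraries numbered 1, all called higher.

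**Figure D2:**
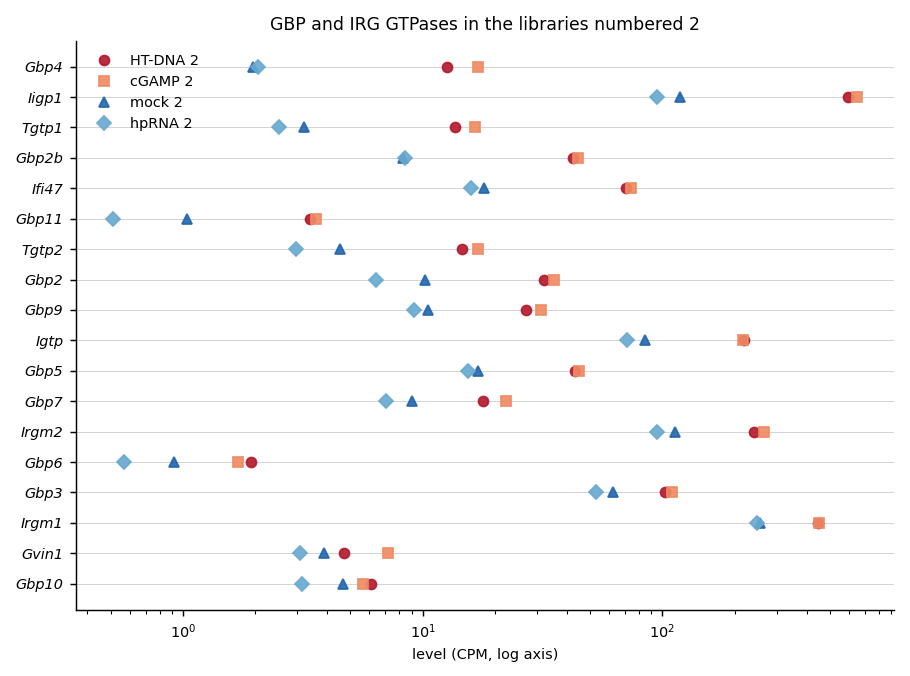
Levels of 18 GBP and IRG genes in CPM on a log axis, 1 symbol a library, ordered by log2 difference with Gbp4 on top. In all 18 genes the symbols of HT-DNA 2 and cGAMP 2 lie right of those of mock 2 and hpRNA 2.

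Many of the 58 genes were neighbours on a chromosome. When genes at most 500 kb apart were joined, 32 of them fell in 9 runs. Runs were not counted over other genes, so nothing is read from these numbers. One run on chromosome 11 held 8 genes, among them Tgtp1, Tgtp2, Ifi47 and Olfr56, and the one on chromosome 18 held 6 with Iigp1. Others held Gbp5, Gbp2b and Gbp2 on chromosome 3, Gbp9, Gbp4 and Gbp11 on chromosome 5, Ifi209, Ifi208 and Ifi205 on chromosome 1, and Gm12250, Igtp and Irgm2 on chromosome 11. Cxcl9 with Cxcl11, Ifnb1 with Ifna4, and a pair of predicted genes made the rest. Of the 58, 15 were predicted genes by their symbols, and reads of overlapping genes in these runs cannot be told apart, because no source used here gives the strand setting of the counting.

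Antiviral effectors differed far less. Of 77 with at least 1 CPM, 71 had both HT-DNA 2 and cGAMP 2 above both mock 2 and hpRNA 2 and 3 had the reverse. Among all genes 21.6% were so separated upward and 27.3% downward. Past 2-fold higher in all 4 pairings were 2, Mx1 and Ifit1bl1, beside 0.456% of all genes. The median log2 difference was 0.62, with quartiles of 0.32 and 0.80: 28 genes differed by less than 0.5, 40 by 0.5 to 1 and 9 by 1 or more. Of the 77, 75 were tested in the libraries numbered 1, with a median log2 fold change of 2.05. With members under 1 CPM included the list held 84 genes, of which 76 were tested there, with a median of 1.98. Of these 76, 71 were called higher and 1 lower, beside 15.2% and 13.8% of all genes tested.

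Ifit1, which binds foreign RNA, had 666 and 678 CPM in HT-DNA 2 and cGAMP 2, against 489 and 450 CPM in mock 2 and hpRNA 2, a log2 difference of 0.52. Isg15, a ubiquitin-like modifier, had 262 and 288 CPM in HT-DNA 2 and cGAMP 2, against 218 and 197 CPM in mock 2 and hpRNA 2, a difference of 0.41. Oasl2, of the oligoadenylate synthetase family, had 279 and 292 CPM in HT-DNA 2 and cGAMP 2, against 272 and 258 CPM in mock 2 and hpRNA 2, a difference of 0.11. All 3 were separated in the same direction by small margins. Their log2 fold changes in the libraries numbered 1 were 6.24 for Ifit1, 4.85 for Isg15 and 5.24 for Oasl2, each called higher. Rsad2, an antiviral enzyme that makes a chain-terminating nucleotide, and Ifit3 lay between, with log2 differences of 0.71 and 0.94.

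Mx1 behaved differently from these. This GTPase against influenza and related viruses had 124 and 147 CPM in HT-DNA 2 and cGAMP 2, against 40.1 and 34.7 CPM in mock 2 and hpRNA 2. The log2 difference was 1.85, and the log2 fold change in the libraries numbered 1 was 4.35 (SE 0.353, edgeR adjusted p = 7.12e-08). That fold change rests on 11 and 1 counts in mock 1 and hpRNA 1 and was 6.79 without mock 1 and 3.49 without hpRNA 1. Ifit1bl1, a relative of Ifit1, had 26.0 and 32.9 CPM in HT-DNA 2 and cGAMP 2, against 2.89 and 3.25 CPM in mock 2 and hpRNA 2, a log2 difference of 3.20. It may share reads with its relatives, and its call in the libraries numbered 1 was lost in 4 of the alternatives. Across the 75 effectors measured in both sets, Spearman's rho between the numbered-2 difference and the numbered-1 fold change was 0.16, as a description over genes that share the same libraries.

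Oasl1, which restrains translation of the Irf7 message, was among the 3 effectors on the other side, another being Zc3hav1 at -0.10. Oasl1 had 356 and 363 CPM in HT-DNA 2 and cGAMP 2, against 432 and 406 CPM in mock 2 and hpRNA 2. The log2 difference was -0.22 with no overlap, a separation that 27.3% of all genes showed downward. Oasl1 in the other set had 176 and 204 CPM in HT-DNA 1 and cGAMP 1, against 4.27 and 3.73 CPM in mock 1 and hpRNA 1, a log2 fold change of 5.56 (SE 0.0956, edgeR adjusted p = 5.13e-17).

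**Figure D3:**
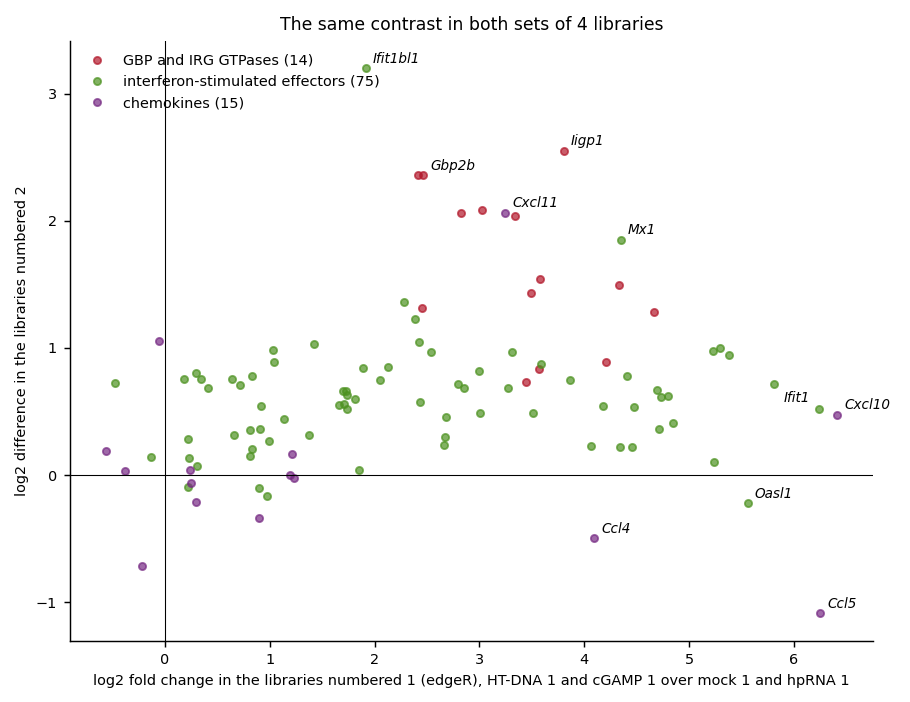
Log2 difference in the libraries numbered 2 against the log2 fold change of the same contrast in those numbered 1, for 14 GBP and IRG genes, 75 effectors and 15 chemokines, 1 point a gene. The GBP and IRG points lie between 0.73 and 2.55 on the vertical axis, Oasl1 and Ccl5 fall below 0, and Ifit1 and Cxcl10 lie near 0.5.

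Chemokines included genes with large differences in either direction. Of 16 with at least 1 CPM, 2 were past 2-fold higher and 1 lower in all 4 pairings, beside 0.456% and 0.00787% of all genes. The median difference was 0.02. The sides were separated upward in 5 and downward in 5, shares near those of all genes (21.6% and 27.3%), from which nothing is read about the list. Of 15 tested in the libraries numbered 1, 9 were called higher and 1 lower, beside 15.2% and 13.8% of all genes tested. Cxcl9, a ligand of CXCR3, a chemokine receptor of T cells, had 8.61 and 8.90 CPM in HT-DNA 2 and cGAMP 2, against 1.35 and 1.14 CPM in mock 2 and hpRNA 2, a log2 difference of 2.70. Cxcl11, a ligand of the same receptor, had 12.1 and 14.7 CPM in HT-DNA 2 and cGAMP 2, against 4.30 and 2.23 CPM in mock 2 and hpRNA 2, a difference of 2.06. Cxcl10, their neighbour and the third CXCR3 ligand, had 534 and 579 CPM in HT-DNA 2 and cGAMP 2, against 411 and 389 CPM in mock 2 and hpRNA 2, a difference of 0.48. All 3 were higher with no overlap. In the other set Cxcl10 had the log2 fold change 6.41 (SE 0.108, edgeR adjusted p = 5.13e-17), while Cxcl9 was under 1 CPM in HT-DNA 1, cGAMP 1, mock 1 and hpRNA 1 alike and was not tested.

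Ccl5 (chr11:83525778-83530518, minus strand), which draws T cells and monocytes and is an early IRF3 target, had 903 and 880 counts in HT-DNA 2 and cGAMP 2, against 1941 and 2142 counts in mock 2 and hpRNA 2. These are 55.9 and 57.6 CPM, against 119 and 122 CPM, a log2 difference of -1.09. The ratio of the summed counts was 0.468, with an exact 95% interval of 0.442 to 0.495 that covers counting error only. Each side was tight and they were far apart. In the other set Ccl5 had 850 and 957 counts in HT-DNA 1 and cGAMP 1, against 9 and 13 counts in mock 1 and hpRNA 1, a log2 fold change of 6.25 (SE 0.169, edgeR adjusted p = 1.48e-14). Its level in HT-DNA 2 and cGAMP 2 was thus close to that in HT-DNA 1 and cGAMP 1, at 44.9 and 52.6 CPM, and the level in mock 2 and hpRNA 2 was above all of these. Ccl4, a related chemokine, had 21.9 and 20.4 CPM in HT-DNA 2 and cGAMP 2, against 27.5 and 32.6 CPM in mock 2 and hpRNA 2, a difference of -0.50. Ccl2 and Ccl7, which recruit monocytes, differed by -0.02 and 0.00, and the neutrophil chemokine Cxcl1 by -0.34.

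Of the 10 direct targets of IRF3, 8 were separated upward and 2, Ccl5 and Oasl1, downward, with a median of 0.50. Over all genes the shares separated upward and downward were 21.6% and 27.3%. Ifnb1 and Ifna4 were past 2-fold higher and Ccl5 was past 2-fold lower, beside 0.456% and 0.00787% of all genes. The 18 genes listed as dependent on signalling from the interferon receptor all stood higher with no overlap, with a median of 0.59 and a range of 0.23 to 1.85. All 8 tested IRF3 targets and all 18 of these genes were called higher in the libraries numbered 1, with median log2 fold changes of 5.68 and 3.07. Over all genes tested there, the share called higher was 15.2%.

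Among sensors, 3 of 30 genes of at least 1 CPM were past 2-fold higher, beside 0.456% of all genes. The median difference was 0.31. Of the 30, 19 were separated upward and 3 downward, beside 21.6% and 27.3% of all genes. Tlr3, the endosomal sensor of paired RNA strands, had 28.2 and 31.2 CPM in HT-DNA 2 and cGAMP 2, against 10.9 and 9.65 CPM in mock 2 and hpRNA 2, a log2 difference of 1.52 with no overlap. Ifi205 and Ifi209, of the Ifi200 family of nuclear proteins, differed by 2.30 and 1.90, and their sequences resemble other members, so reads may be shared. Ifih1, the cytosolic RNA sensor MDA5, had 61.4 and 61.2 CPM in HT-DNA 2 and cGAMP 2, against 68.8 and 67.5 CPM in mock 2 and hpRNA 2, a difference of -0.15 with no overlap, although it was called higher in the libraries numbered 1 with 4.38. Ddx58, which encodes RIG-I, differed by 0.41. Cgas had 20.7 and 20.6 CPM in HT-DNA 2 and cGAMP 2, against 15.2 and 14.9 CPM in mock 2 and hpRNA 2, a difference of 0.45. Tmem173, which encodes STING, had 33.3 and 32.7 CPM in HT-DNA 2 and cGAMP 2, against 21.01 and 21.46 CPM in mock 2 and hpRNA 2, a difference of 0.63. In the libraries numbered 1 the Tmem173 fold change was -0.05 (SE 0.0939, edgeR adjusted p = 0.721) on the log2 scale. The adaptor Mavs and the factor Irf3 differed by -0.06 and -0.08 in the libraries numbered 2.

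Transcription factors and feedback genes of the interferon receptor pathway included genes that did not move in the other set. Of 26, 3 were past 2-fold higher, namely Irf1, Socs3 and Cish, beside 0.456% of all genes, and the median was 0.38. Separated upward were 16 of the 26 and downward 2, beside 21.6% and 27.3% of all genes. Irf1 had 147 and 146 CPM in HT-DNA 2 and cGAMP 2, against 61.0 and 58.9 CPM in mock 2 and hpRNA 2, a log2 difference of 1.29. It was called higher in the libraries numbered 1 with a log2 fold change of 1.32 (SE 0.101, edgeR adjusted p = 3.35e-08). Irf1 was thus separated in both sets.

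Socs3, an inhibitor of cytokine receptors that STAT3 induces, had 118 and 112 CPM in HT-DNA 2 and cGAMP 2, against 47.7 and 48.9 CPM in mock 2 and hpRNA 2, a log2 difference of 1.25. In the other set it had 52.4 and 53.4 CPM in HT-DNA 1 and cGAMP 1, against 51.2 and 53.8 CPM in mock 1 and hpRNA 1, and was not called (edgeR adjusted p = 0.997). HT-DNA 2 and cGAMP 2 thus stood above the other 6 libraries, which lay between 47.7 and 53.8 CPM. Stat3 showed the same order, with 232 and 231 CPM in HT-DNA 2 and cGAMP 2, against 143 and 142 CPM in mock 2 and hpRNA 2. Its level was 122 to 123 CPM in the 4 libraries numbered 1. Cish, a SOCS-family inhibitor induced by STAT5, had 15.4 and 14.1 CPM in HT-DNA 2 and cGAMP 2, against 4.92 and 5.71 CPM in mock 2 and hpRNA 2. Cish was called lower in the libraries numbered 1, at -0.45 (edgeR adjusted p = 0.0281), a call lost in 5 of the alternatives. Irf7, Irf9 and Stat2 differed by 0.59, 0.28 and 0.78 in the libraries numbered 2 and were called higher in those numbered 1. The receptor gene Ifnar1 and the kinase gene Jak1 differed by -0.03 and -0.01.

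Antigen presentation genes differed little for the classical heavy chains and more for peptide supply. Of 24, 1, H2-T10, was past 2-fold higher, beside 0.456% of all genes, and the median was 0.35. The sides were separated upward in 20 of the 24 and downward in none, beside 21.6% and 27.3% of all genes. H2-K1, a classical class I heavy chain, had 558 and 561 CPM in HT-DNA 2 and cGAMP 2, against 516 and 520 CPM in mock 2 and hpRNA 2, a log2 difference of 0.11. H2-D1 and B2m differed by 0.05 and 0.18. The immunoproteasome subunits Psmb8 and Psmb9 and the peptide transporter Tap1 differed by 0.80, 0.79 and 0.75. Chaperones of the endoplasmic reticulum did not separate: Canx had 1180 and 1225 CPM in HT-DNA 2 and cGAMP 2, against 1196 and 1208 CPM in mock 2 and hpRNA 2.

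Cytokine, death and NF-kB lists each held few large differences. Tnfsf10, which encodes the death ligand TRAIL, had 20.3 and 24.7 CPM in HT-DNA 2 and cGAMP 2, against 5.96 and 3.94 CPM in mock 2 and hpRNA 2, a log2 difference of 2.18. Casp4, the murine caspase-11 that senses bacterial lipopolysaccharide, had 42.1 and 46.0 CPM in HT-DNA 2 and cGAMP 2, against 20.1 and 17.2 CPM in mock 2 and hpRNA 2. It was not called in the libraries numbered 1, where it lay between 8.44 and 9.71 CPM. Cd274, the checkpoint ligand PD-L1, was among the 58 genes, with 52.7 and 56.3 CPM in HT-DNA 2 and cGAMP 2, against 15.9 and 15.1 CPM in mock 2 and hpRNA 2; it is named after its values were seen. Il6 had 15.5 and 16.6 CPM in HT-DNA 2 and cGAMP 2, against 8.17 and 10.3 CPM in mock 2 and hpRNA 2, a difference of 0.80. Of 22 NF-kB genes of at least 1 CPM, 1 was past 2-fold higher, beside 0.456% of all genes, and the median was 0.08. It was the kinase gene Map3k8, with a difference of 1.15. Nfkbia, the inhibitor that NF-kB itself induces, differed by 0.10, Tnf by -0.07 and Tnfaip3 by 0.55.

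Downward differences were smaller. Past 1.5-fold in all 4 pairings, 30 genes were lower (0.236%) and 176 higher (1.38%). The 30 were all tested in the libraries numbered 1, where 10 were called higher and 1 lower. Among all genes tested there, 15.2% were called higher and 13.8% lower. Plat, the tissue plasminogen activator, fell just short of the 2-fold limit, with 12.7 and 11.5 CPM in HT-DNA 2 and cGAMP 2, against 28.2 and 24.9 CPM in mock 2 and hpRNA 2. It was called higher in the libraries numbered 1, at 1.88 (SE 0.14, edgeR adjusted p = 2.48e-08). Bbc3, which encodes the p53-induced death protein PUMA, had 8.73 and 9.23 CPM in HT-DNA 2 and cGAMP 2, against 20.2 and 18.0 CPM in mock 2 and hpRNA 2. Dusp1, a phosphatase that switches off MAP kinases, had 9.47 and 9.03 CPM in HT-DNA 2 and cGAMP 2, against 18.1 and 18.1 CPM in mock 2 and hpRNA 2. Neither Bbc3 nor Dusp1 was called in the libraries numbered 1, and in all 6 other libraries their levels lay above those of HT-DNA 2 and cGAMP 2.

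Some metabolic lists leaned downward by small amounts in the libraries numbered 2. Of 32 hypoxia and glycolysis genes none was past 2-fold, 28 were separated downward and none upward, and the median was -0.19. Egln3, an oxygen-sensing hydroxylase gene, had 310 and 332 CPM in HT-DNA 2 and cGAMP 2, against 510 and 481 CPM in mock 2 and hpRNA 2. The edgeR test in the libraries numbered 1 called 25 of the 32 higher and 3 lower, at a median of 0.23. It called 15.2% of all genes tested higher and 13.8% lower. Of 21 p53 targets 17 were separated downward and 1 upward, with a median of -0.24, and Cdkn1a differed by -0.39. Of 25 genes of cholesterol and fatty acid synthesis 19 were separated downward and none upward, with a median of -0.11. The 44 cell cycle genes had a median of -0.03, beside -0.01 over all genes, with 7 separated upward and 15 downward, near the shares of all genes (21.6% and 27.3%). Immediate-early genes were mixed, with 9 of 30 upward and 15 downward: Junb differed by 0.82 and Egr1 by -0.49. The list medians named here kept their sign under scaling by library totals alone and by the upper quartile.

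**Figure D4:**
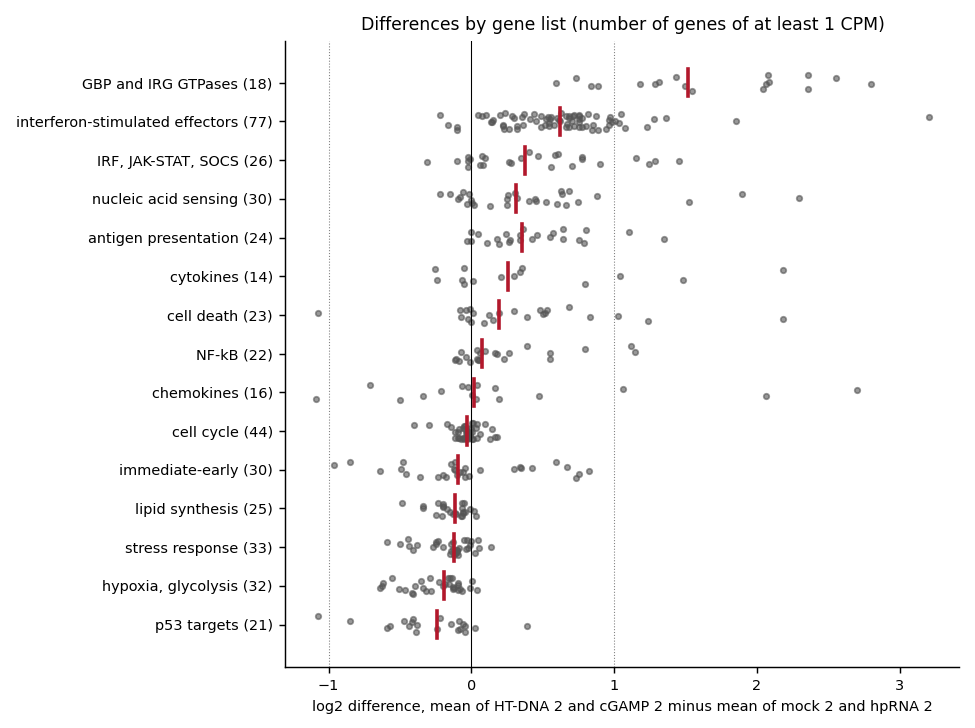
Log2 difference in the libraries numbered 2 by gene list, 1 point a gene of at least 1 CPM, with the list median as a red bar and dotted lines at 2-fold. The median is 1.52 for GBP and IRG genes, 0.62 for effectors, 0.02 for chemokines and -0.24 for p53 targets.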

How the data were processed

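Gene expression was measured by RNA sequencing of 12 libraries, of which 8 are used here, 2 for each of the labels HT-DNA, cGAMP, mock and hpRNA. Values in the deposited files are raw counts for each Ensembl gene, 1 file a library. The submitters' processing notes name HISAT2, HTSeq and the build mm10, without versions. Neither the annotation release nor the strandedness used in counting is given in the sources used here. Of 54532 listed genes, 54409 matched GENCODE release M21, which gave symbols and positions.

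Levels are CPM with TMM scaling over all 12 libraries, computed with edgeR 4.0.16 in R 4.3.3, and log2 values use a prior count of 2. In the libraries numbered 2 a gene was kept at a mean of at least 1 CPM and counted as past 2-fold when all 4 pairings of the sides passed it. The log2 difference is the mean of HT-DNA 2 and cGAMP 2 minus the mean of mock 2 and hpRNA 2. The noise ratio uses genes whose summed count in both libraries was at least 100. For each gene the squared deviation from the share set by the libraries' totals over these genes was divided by its binomial variance. The ratio is the median of these values divided by its value under sampling noise. In the libraries numbered 1 edgeR's quasi-likelihood test compared HT-DNA 1 and cGAMP 1 with mock 1 and hpRNA 1, after its default filter, leaving 2 residual degrees of freedom; the biological coefficient of variation was 0.0325. The 2 libraries of a side carry different labels and were taken as replicates only because the comparison pools them and the same data showed each pair to be close, so the p-values may be too small. They measure the spread between single libraries, part of which may be technical. P-values were adjusted by Benjamini-Hochberg over all genes tested. The script was tested on simulated counts. Intervals of count ratios are exact binomial and cover counting error only.

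The compared libraries, the lists and the naming rule were chosen with earlier results of these data known. The rule names the 15 genes with the largest gap upward and 10 with the largest gap downward between the sides, up to 4 past 2-fold in each list, the least different members of 3 lists, fixed genes of the pathway, and the 5 genes of largest change each way in the libraries numbered 1. Predicted genes were left out by symbol. Other list members and Cd274 are examples chosen after their values were seen. Alternatives were other scalings, filters and prior counts, a 1.5-fold limit, DESeq2 1.42.0, a spread from 8 libraries, and each library left out in turn.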

Additional observations from a re-analysis of the deposited data

Results flagged for a closer look

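A set of 14 named genes had both libraries of one side above both of the other in the libraries numbered 2, and the reverse in those numbered 1. Among all genes, 21.6% were separated upward and 27.3% downward in the libraries numbered 2, so nothing is read from the count itself. The difference between the sets was not tested. Ccl5 had a log2 difference of -1.09 in the libraries numbered 2 and a log2 fold change of 6.25 in those numbered 1. For Oasl1 the values were -0.22 and 5.56, for Ifih1 -0.15 and 4.38, for Tacr2, a tachykinin receptor gene at low level, -0.97 and 3.13, and for Plat -1.13 and 1.88. Cxcl1 had -0.34 and 0.90, Egr1 -0.49 and 0.90, the amino acid transporter gene Slc38a1 -0.89 and 0.88, and Kctd16 -0.90 and 0.93, its call in the libraries numbered 1 being lost in 5 of the alternatives. The glycolysis gene Eno2 had -0.34 and 0.43, the sterol synthesis gene Sqle -0.17 and 0.26, and Zc3hav1, an antiviral RNA-binding protein gene, -0.10 and 0.22. In the other direction, Cish had 1.45 and -0.45 and Map3k8 1.15 and -0.37, with the Cish call in the libraries numbered 1 lost in 5 of the alternatives and Map3k8 not called there. The call of Tacr2 was lost without cGAMP 1.

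Libraries outside the comparison also held Ifnb1 and Ccl5 counts above those of mock 1 and hpRNA 1. Ifnb1 had 450 and 56 counts in G3-YSD 1 and G3-YSD 2, and 390 and 50 in HSV 1 and HSV 2, against 0 and 0 in mock 1 and hpRNA 1. Ccl5 had 13737 and 512 counts in G3-YSD 1 and G3-YSD 2, and 13519 and 390 in HSV 1 and HSV 2, against 9 and 13 in mock 1 and hpRNA 1.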

How the results depend on the processing

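Of the genes past 2-fold in the libraries numbered 2, 58 were higher and 1 lower. With no filter on low values these were 189 and 49, with a 1.5-fold limit 176 and 30, and with a prior count of 0.5 the lower count was 4. Leaving out 1 library in turn gave 74 to 94 higher and 9 to 22 lower. A lower limit, no filter, a smaller prior count and a left-out library all ease the rule. Nearly all of the 58 remain there by construction, which shows nothing about their stability. Under both other scalings 56 of the 58 remained, and 39 of the 58 had a mean of at least 5 CPM. In the libraries numbered 1, 2134 were called higher and 1947 lower; DESeq2 gave 1300 and 938, and no filter on low counts 1207 and 1128. Leaving out 1 library gave 889 to 2148 higher and 604 to 1886 lower, with the lone library of a side assumed to vary like the pair. Of the 58, 25 were called higher, and 14 with DESeq2, which gave 11 of the 25 no adjusted p. Of the values of the 85 named genes, none past 2-fold or called changed sign. Among the other values, 6 changed sign in the libraries numbered 2 (Calr, Canx, Ccl2, Ifi27, Pdia3 and Tnf) and 8 in those numbered 1, all with reported values of at most 0.10. In the libraries numbered 1, 547 repeats gave the same outcome, be it called or not called, 33 lost a call and 4 gained one. The cause was not tested. No paired analysis was possible because the tested comparison uses only libraries numbered 1, so its groups share fewer than 2 numbers. Low genes such as Ifna4 and Cxcl9 did not pass the filter on low counts in the libraries numbered 1. Unfiltered, edgeR gave them adjusted p-values of 0.111 and 0.469.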
